A study of Mus musculus with 8 samples.

Results

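Annexins are calcium-dependent phospholipid-binding proteins, and several of them work as complexes with small S100 proteins. The 10 genes described here are the annexins Anxa1, Anxa2, Anxa3, Anxa4, Anxa5, Anxa6 and Anxa7 and the S100 genes S100a6, S100a10 and S100a11. They were taken by symbol from the deposited liver expression table, where all 10 were found among 52110 named rows, and all 10 passed the filter of a mean of at least 1 FPKM (fragments scaled by transcript length and by the mapped fragments of the library) that left 11274 genes for testing. Livers came from WT mice with steatohepatitis induced by CDAHFD, a high-fat diet that lacks choline and has defined amino acids. The RIC_hEV group (4 libraries) had received intravenous extracellular vesicles from the circulation of human volunteers after remote limb ischemic conditioning, in which blood flow to a limb is briefly interrupted and restored. The ctr_hEV group (4 libraries) had received vesicles from sham-treated volunteers. Diet and genotype were common to both groups. The sources used here do not give the age or sex of the mice, the dose or time of injection, whether vesicles of several volunteers were pooled, or whether each library is a separate animal, so the p-values below measure the spread between libraries. The comparison asks how liver transcript levels differ between mice given either kind of vesicle.

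Annexins share a core that binds membranes when calcium rises and differ in a short amino-terminal tail, which is where S100 dimers attach. The complex of Anxa2 with S100a10 sits at the plasma membrane, organises actin-linked membrane patches and binds plasminogen and its activator. Anxa1 is held by S100a11 and, when released from cells, acts on formyl peptide receptors to limit inflammation. In healthy liver Anxa6 is present in hepatocytes, whereas Anxa2, S100a6 and S100a11 are better known from bile duct cells, macrophages and stellate cells and rise in injured liver. In a bulk library fewer cells of a type and less RNA per cell cannot be told apart.

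In GENCODE M21 (mm10) all 10 genes are protein-coding. The 3 S100 genes lie on the plus strand of chromosome 3, S100a6 at 90612882 to 90624181, S100a11 at 93520488 to 93526287 and S100a10 at 93555080 to 93564643, so that 28792 bases separate S100a11 from S100a10. Anxa5 lies on the minus strand of the same chromosome at 36448923 to 36475894. Anxa2 is on chromosome 9 at 69453620 to 69491795, plus strand, and Anxa1 on chromosome 19 at 20373428 to 20390944, minus strand. The other annexins are on chromosome 5 (Anxa3, 96793339 to 96845966, plus strand), chromosome 6 (Anxa4, 86736840 to 86793584, minus strand), chromosome 11 (Anxa6, 54979108 to 55033445, minus strand) and chromosome 14 (Anxa7, 20455260 to 20480133, minus strand).

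Promoter windows of RefSeq (GRCm38.p6), 250 bases before to 50 bases after a transcript start, were given for 7 of the 10 genes as 9 windows. Anxa3, Anxa6 and S100a10 were without an entry. The windows of Anxa2 (chr9:69453433-69453732, plus strand), S100a11 (chr3:93520246-93520545, plus strand) and Anxa5 (chr3:36475838-36476137, minus strand) are shown. Those of Anxa2 and S100a11 hold all the matches to TGANTCA among the 9 windows. That of Anxa5 is given as a window without a match, from the gene whose pattern over the libraries was closest to that of Anxa2. Capitals mark TGANTCA, the AP-1 consensus, searched on both strands.
Anxa2: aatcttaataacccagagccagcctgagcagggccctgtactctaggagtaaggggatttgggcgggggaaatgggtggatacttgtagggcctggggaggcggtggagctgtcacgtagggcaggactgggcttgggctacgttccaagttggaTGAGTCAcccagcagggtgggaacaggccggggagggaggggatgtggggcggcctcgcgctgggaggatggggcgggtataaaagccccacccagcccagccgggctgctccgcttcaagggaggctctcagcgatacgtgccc
S100a11: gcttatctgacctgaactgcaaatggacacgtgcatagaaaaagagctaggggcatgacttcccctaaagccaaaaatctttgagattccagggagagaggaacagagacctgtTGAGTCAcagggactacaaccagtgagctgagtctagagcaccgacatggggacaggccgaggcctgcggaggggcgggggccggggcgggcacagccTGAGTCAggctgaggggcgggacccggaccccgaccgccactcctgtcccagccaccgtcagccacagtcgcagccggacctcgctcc
Anxa5: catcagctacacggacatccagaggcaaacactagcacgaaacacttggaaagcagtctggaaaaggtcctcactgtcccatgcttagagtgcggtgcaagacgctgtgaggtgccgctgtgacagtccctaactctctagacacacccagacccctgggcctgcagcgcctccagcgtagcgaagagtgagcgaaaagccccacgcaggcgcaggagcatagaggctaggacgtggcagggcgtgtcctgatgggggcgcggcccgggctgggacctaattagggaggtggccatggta
The consensus occurred in 2 of the 9 windows, against 7.81% of 32851 windows in the RefSeq table. In Anxa2 it began 95 bases before the start. In S100a11 it was present at 136 and at 38 bases before the start, and 0.460% of all windows held 2 or more matches. It was not found in the window of Anxa5. The antioxidant response consensus TGACNNNGC, which can overlap TGANTCA, was found in 2 of the 9 windows (Anxa4 and Anxa7; 12.4% of all windows). The letters TATAAA were found in 2 (Anxa2, 17 bases, and Anxa1, 32 bases before the start; 13.6% of all windows), and CACGTG in 3 (S100a6, S100a11 and Anxa7; 7.15% of all windows). A match is a description of the letters and not of a bound site.

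The libraries held an estimated 19300000 to 28500000 fragments each, read from the most common value of FPKM times exon length among low genes. On that estimate the lowest gene, S100a6, rested on about 100 to 380 fragments per library. The control libraries 1 and 3 stood apart from the other 6 libraries (-36.1 and -23.3 on the leading principal component, against 4.75 to 16.3 in RIC_hEV and -2.36 and 16.3 in ctr_hEV 2 and 4), and results are therefore also given without them. All 8 libraries held hepatocyte markers at high levels, with a summed 34962 to 40695 FPKM over 8 markers in RIC_hEV and 27349 to 42663 FPKM in ctr_hEV. The median tested gene had a log2 change of -0.11 (RIC_hEV minus ctr_hEV), so several fitted changes are followed by their value relative to that median.

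For no annexin or S100 partner was the difference between livers given RIC_hEV and livers given ctr_hEV larger than the spread between libraries after adjustment. Of the 10 genes 0 passed limma at an adjusted p under 0.05, where 0.0355% of all tested genes passed, and the 2 groups overlapped in all 10, where 5.87% of tested genes did not overlap. All 10 were lower in RIC_hEV as fitted, against 73.0% of tested genes. With per-library median centring 7 of 10 were lower, and the median of all tested genes was 0.025. At an unadjusted p under 0.05, 3 were lower (Anxa2, Anxa4 and Anxa5), against 11.3% of tested genes. The median fitted log2 change of the 10 was -0.26, beside -0.11 for all tested genes. This median depended on single libraries, at -0.112 without ctr_hEV 1, -0.39 without RIC_hEV 3, -0.438 without ctr_hEV 4 and 0.034 without ctr_hEV 1 and 3. In the same fits, in that order, the median of all tested genes was -0.066, -0.114, -0.152 and -0.029. With median centring the median of the 10 was -0.12, beside 0.025 for all tested genes. Of the 10 genes, 0 were at an unadjusted p under 0.05 without ctr_hEV 1, ctr_hEV 3, RIC_hEV 1 or RIC_hEV 2. The shares of all tested genes there were 8.36%, 6.88%, 7.17% and 9.88%, in either direction. Without ctr_hEV 4 the number was 5 of the 10, and the share of all tested genes rose to 29.1%. Several of the 10 genes varied together over a wide range among the control libraries.

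**Figure D1:**
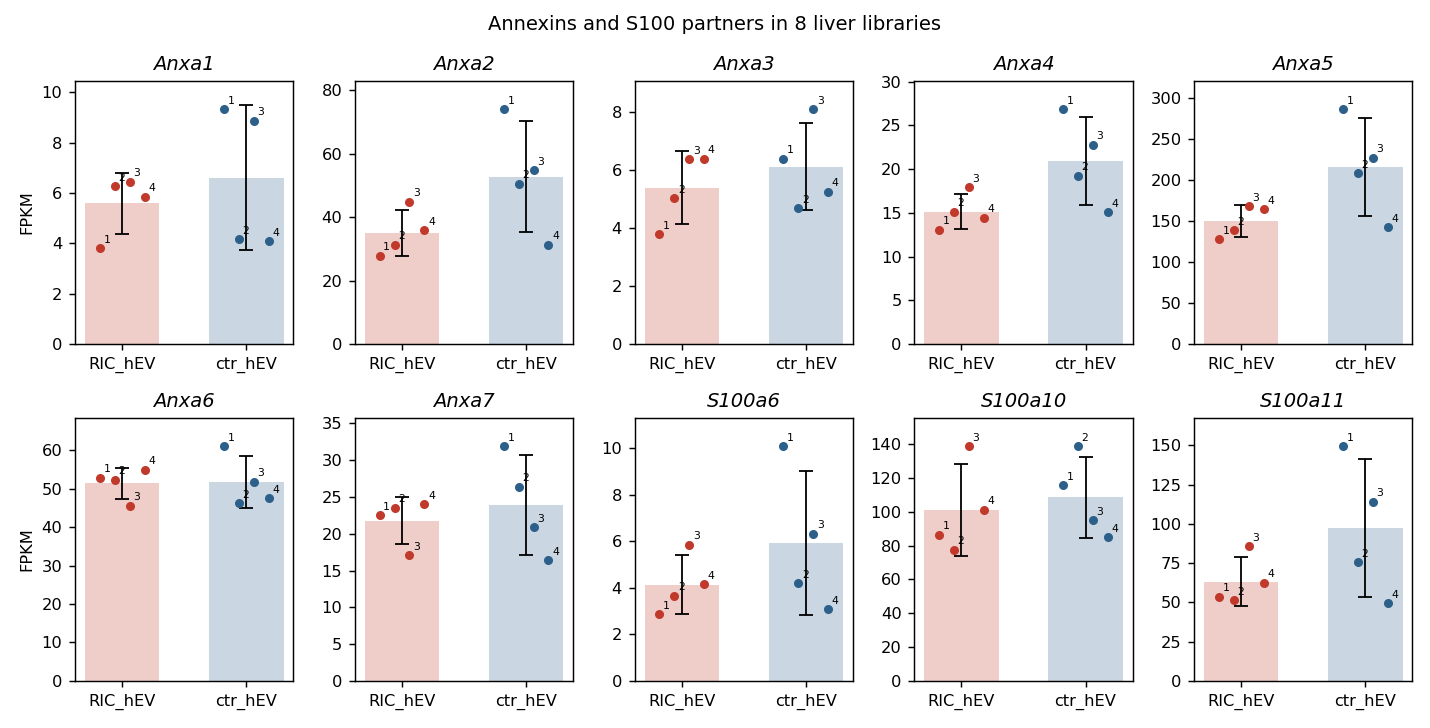
FPKM of the 10 genes in the RIC_hEV libraries (left, red) and the ctr_hEV libraries (right, blue). Points are libraries numbered by replicate, bars are means and whiskers SD (n = 4 per group). In Anxa2, Anxa4, Anxa5, S100a6 and S100a11 ctr_hEV 1 is highest, and ctr_hEV 4 lies among the RIC_hEV libraries in the same genes except S100a11, where it lies below them.

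The Anxa2 and S100a10 genes encode the subunits of one heterotetramer. Anxa2 was at 27.9, 31.4, 44.9 and 35.9 FPKM in RIC_hEV 1 to 4, against 74.1, 50.6, 54.8 and 31.4 FPKM in ctr_hEV 1 to 4. ctr_hEV 1, 2 and 3 lay above every RIC_hEV library, while ctr_hEV 4 lay within their range. The mean was 35 ± 7.36 FPKM in RIC_hEV and 52.7 ± 17.5 FPKM in ctr_hEV (SD, n = 4 each), a fitted log2 change of -0.54 (SE 0.23, 95% interval -1.05 to -0.02, limma adjusted p = 0.354) and -0.43 relative to the median gene. Without ctr_hEV 1 and 3 the log2 change was -0.20 (adjusted p = 0.909).

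S100a10, which binds the Anxa2 tail without needing calcium, was at 86.5, 77.5, 139 and 101 FPKM in RIC_hEV 1 to 4, against 116, 139, 95.1 and 84.8 FPKM in ctr_hEV 1 to 4. Its highest libraries were RIC_hEV 3 and ctr_hEV 2, and the groups covered nearly the same range. The fitted log2 change was -0.11 (SE 0.20, 95% interval -0.55 to 0.33, limma adjusted p = 0.777), level with the median gene, and it turned to 0.02 with median centring.

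The ratio of the subunits' transcripts separated the libraries in another way than the groups. The FPKM of Anxa2 divided by that of S100a10 was 0.323, 0.405, 0.324 and 0.354 in RIC_hEV 1 to 4, against 0.640, 0.365, 0.576 and 0.371 in ctr_hEV 1 to 4. Thus 6 of the 8 libraries, ctr_hEV 2 and 4 among them, lay between 0.323 and 0.405, and ctr_hEV 1 and 3 lay above. The mean log2 ratio was -1.49 ± 0.15 in RIC_hEV and -1.07 ± 0.41 in ctr_hEV, a difference of -0.42 that did not pass (two-sided exact permutation p = 0.114 over 70 assignments, also 0.114 adjusted over the 2 ratios tested, smallest possible p 0.0286). Without ctr_hEV 1 and 3 the difference was -0.07.

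**Figure D2:**
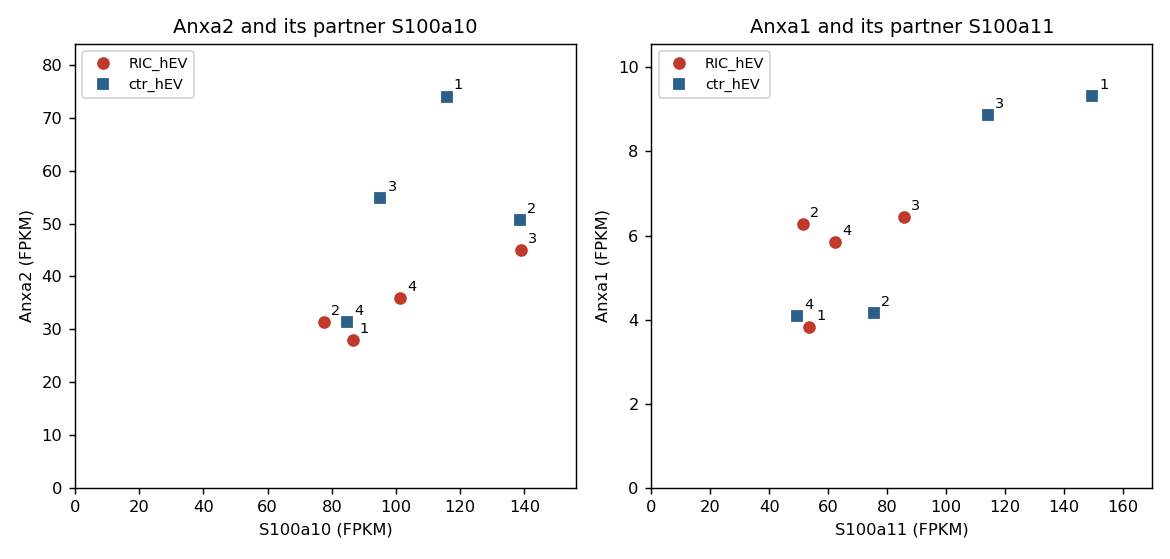
FPKM of Anxa2 against S100a10 (left) and of Anxa1 against S100a11 (right), 1 point per library numbered by replicate, RIC_hEV as red circles and ctr_hEV as blue squares. In the left panel 6 libraries follow a common line and ctr_hEV 1 and 3 lie above it. In the right panel the same pair of control libraries is highest in both genes.

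Anxa1, the glucocorticoid-induced annexin, was at 3.82, 6.27, 6.44 and 5.85 FPKM in RIC_hEV 1 to 4, against 9.32, 4.16, 8.87 and 4.08 FPKM in ctr_hEV 1 to 4. The control libraries split, with ctr_hEV 1 and 3 above and ctr_hEV 2 and 4 near the bottom of the RIC_hEV range. The mean was 5.6 ± 1.21 FPKM in RIC_hEV and 6.61 ± 2.88 FPKM in ctr_hEV, a fitted log2 change of -0.14 (SE 0.25, limma adjusted p = 0.777) and -0.03 relative to the median gene. The sign depended on the 2 control libraries, since without them the log2 change was 0.35 (95% interval -0.06 to 0.75, adjusted p = 0.886).

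S100a11, the partner of Anxa1, was at 53.5, 51.4, 85.8 and 62.5 FPKM in RIC_hEV 1 to 4, against 149.7, 75.6, 114 and 49.6 FPKM in ctr_hEV 1 to 4. It covered a wider range among controls than among RIC_hEV livers, with a coefficient of variation of 24.9% in RIC_hEV and 45.1% in ctr_hEV. As fitted the log2 change was -0.52 (SE 0.30, limma adjusted p = 0.414), -0.41 relative to the median gene and 0.02 without ctr_hEV 1 and 3. Its level is uncertain, because 48.9% of its 31-base stretches also occur in other annotated genes. The processed pseudogene Gm12854, which is among them, was at 5.21 to 8.45 FPKM in RIC_hEV and 4.22 to 13.5 FPKM in ctr_hEV. Gm7665, also among them, was at 4.03 to 6.85 FPKM in RIC_hEV and 3.45 to 9.70 FPKM in ctr_hEV. In each of the other 9 genes at most 3.20% of stretches were shared.

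The ratio of Anxa1 to S100a11 ran in the opposite direction to that of Anxa2 to S100a10. Its mean log2 value was -3.28 ± 0.32 in RIC_hEV and -3.66 ± 0.28 in ctr_hEV, a difference of 0.38 (two-sided exact permutation p = 0.114, also 0.114 adjusted over both ratios). The groups overlapped. Unlike the other ratio it kept its size without ctr_hEV 1 and 3, at 0.33. The uncertain level of S100a11 limits this ratio too.

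S100a6, or calcyclin, which binds several annexins and the ubiquitin adaptor Cacybp, was at 2.87, 3.65, 5.84 and 4.16 FPKM in RIC_hEV 1 to 4, against 10.1, 4.20, 6.33 and 3.08 FPKM in ctr_hEV 1 to 4. Only ctr_hEV 1 and 3 exceeded the highest RIC_hEV library. Of the 10 genes it had the widest range, 3.51-fold between ctr_hEV 1 and RIC_hEV 1. The fitted log2 change was -0.36 (SE 0.28, limma adjusted p = 0.519), and 0.13 without ctr_hEV 1 and 3.

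Anxa5, which binds phosphatidylserine exposed on dying cells, was the most abundant member and made up 34.9% of the summed FPKM of the 10 genes. It was at 128, 139, 169 and 164 FPKM in RIC_hEV 1 to 4, against 287, 209, 228 and 143 FPKM in ctr_hEV 1 to 4. As for Anxa2, ctr_hEV 1, 2 and 3 lay above every RIC_hEV library and ctr_hEV 4 among them. The mean was 150.0 ± 19.7 FPKM in RIC_hEV and 216 ± 59.4 FPKM in ctr_hEV, a fitted log2 change of -0.49 (SE 0.19, 95% interval -0.92 to -0.07, limma adjusted p = 0.354) and -0.38 relative to the median gene. This was the lowest unadjusted p of the 10 (0.0277). The log2 change was -0.21 without ctr_hEV 1 and 3 and -0.68 (adjusted p = 0.0554) without ctr_hEV 4.

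Anxa4, an annexin of secretory and ductal epithelia, was at 13.1, 15.1, 18 and 14.5 FPKM in RIC_hEV 1 to 4, against 26.8, 19.2, 22.8 and 15 FPKM in ctr_hEV 1 to 4. The arrangement of the libraries was again that of Anxa2, with ctr_hEV 4 inside the RIC_hEV range. The fitted log2 change was -0.42 (SE 0.17, 95% interval -0.79 to -0.05, limma adjusted p = 0.354), -0.31 relative to the median gene and -0.17 without ctr_hEV 1 and 3. Over 75 bases its exons overlap Gm44036 on the opposite strand, which was at no more than 0.0932 FPKM in any library. In Anxa2 a similar overlap of 98 bases with Gm16144 came with 0.133 to 0.497 FPKM of that gene. The sources used here do not state whether strand was used in counting.

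Anxa3, known from human neutrophils, was at 3.78, 5.02, 6.37 and 6.38 FPKM in RIC_hEV 1 to 4, against 6.38, 4.69, 8.08 and 5.25 FPKM in ctr_hEV 1 to 4. Here ctr_hEV 3 was the highest library, and RIC_hEV 3 and 4 were level with ctr_hEV 1. Its fitted log2 change was -0.15 (SE 0.18, limma adjusted p = 0.666), and 0.08 without ctr_hEV 1 and 3.

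Anxa6, a large annexin with a duplicated core that acts in endosome and cholesterol traffic, was the steadiest of the 10. It was at 52.9, 52.4, 45.6 and 54.9 FPKM in RIC_hEV 1 to 4, against 61.1, 46.2, 51.8 and 47.6 FPKM in ctr_hEV 1 to 4. Its highest library exceeded its lowest by 1.34-fold. The fitted log2 change was -0.002 (SE 0.12, 95% interval -0.26 to 0.25, limma adjusted p = 0.995), which is 0.11 above the median gene.

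Anxa7, which binds the calcium sensor sorcin, was at 22.5, 23.5, 17.1 and 24.0 FPKM in RIC_hEV 1 to 4, against 31.9, 26.4, 20.9 and 16.4 FPKM in ctr_hEV 1 to 4. The RIC_hEV libraries lay inside the control range. Its log2 change was fitted at -0.10 (SE 0.19, limma adjusted p = 0.80), 0.01 relative to the median gene and 0.05 without ctr_hEV 1 and 3.

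**Figure D3:**
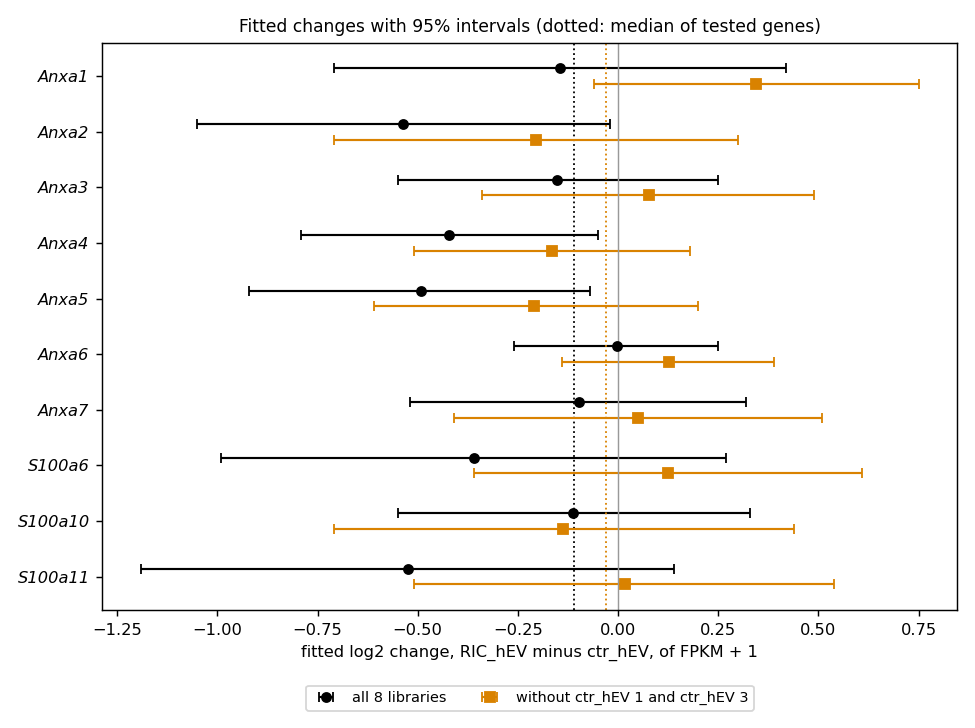
Fitted log2 change (RIC_hEV minus ctr_hEV) of FPKM + 1 with 95% intervals from limma, for all 8 libraries (black circles) and without ctr_hEV 1 and 3 (orange squares). Dotted lines mark the median of all tested genes in each fit, -0.11 and -0.029. With all libraries the intervals of Anxa2, Anxa4 and Anxa5 end below 0, and without the 2 control libraries all 10 intervals include 0.

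In FPKM, a level per length of transcript, the 10 genes fell into a clear upper and lower tier over the 8 libraries. Anxa5 was highest (183 ± 54.2 FPKM, SD, n = 8), followed by S100a10 (105 ± 24.0), S100a11 (80.3 ± 35.5), Anxa6 (51.6 ± 5.14), Anxa2 (43.9 ± 15.6), Anxa7 (22.8 ± 5.01) and Anxa4 (18.1 ± 4.72). Anxa1 (6.10 ± 2.12), Anxa3 (5.74 ± 1.33) and S100a6 (5.03 ± 2.38) formed the lower tier, and the ranges of Anxa4 and Anxa1 did not overlap. All other neighbours in the order overlapped in range. Anxa5 exceeded S100a10, and Anxa2 exceeded Anxa7, in 8 of 8 libraries, whereas Anxa6 exceeded Anxa2, and Anxa1 exceeded Anxa3, in 5 of 8.

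Anxa2, Anxa4, Anxa5, S100a6 and S100a11 moved together from library to library. These 5 genes were grouped after their values were seen, and the group is a description. Over the 8 libraries their 10 pairwise Pearson correlations of log2(FPKM + 1) lay between 0.90 and 0.99. Removing each group's mean left them at 0.93 to 0.98, and leaving out ctr_hEV 1 and 3 at 0.64 to 0.96. All the genes come from the same libraries and share their depth and scaling. Of all 45 pairs among the 10 genes, 11 passed at 0.05 (two-sided exact permutation p of r, adjusted over the 45 pairs), and the median r was 0.61.

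The closest pair was Anxa2 and Anxa5, with r = 0.99 and Spearman's rho = 1.0 (exact permutation p = 2.48e-05 for r, adjusted p = 0.00112), and r = 0.96 without the 2 libraries farthest from the median. S100a6 and S100a11 had r = 0.97 and rho = 0.93 (exact permutation p = 0.000174 and 0.00223, adjusted p = 0.00260 for r), and r = 0.90 without the 2 farthest. Both known complexes were looser. Anxa2 and S100a10 had r = 0.63 and rho = 0.64 (exact permutation p = 0.0947 and 0.0962, adjusted p = 0.213 for r), and Anxa1 and S100a11 had r = 0.80 and rho = 0.79 (exact permutation p = 0.0183 and 0.0279, adjusted p = 0.0634 for r). Without their 2 farthest libraries these were 0.66 and 0.64.

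Leaving out ctr_hEV 1 and 3 instead raised the correlation of S100a10 with Anxa2 to 0.94 and with S100a11, its neighbour on the chromosome, to 0.97 (0.54 over all 8 libraries). In the 6 remaining libraries S100a10 thus went with the block. In ctr_hEV 1 and 3 it was 0.17 and -0.11 from its own mean on the log2 scale, where Anxa2 lay 0.81 and 0.38 and S100a11 1.0 and 0.61 above theirs. Leaving out the same libraries took Anxa1 with Anxa2 to 0.20, against 0.71 over all 8. Anxa6 had a correlation of -0.29 with S100a10 and of 0.30 with Anxa2.

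**Figure D4:**
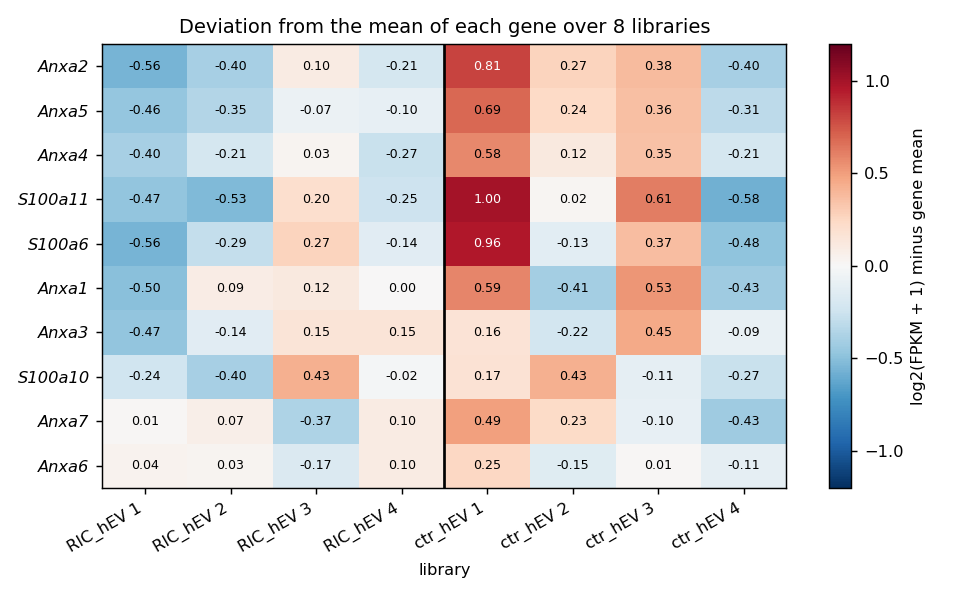
log2(FPKM + 1) of each gene minus its mean over the 8 libraries, RIC_hEV libraries left of the line and ctr_hEV libraries right of it. Red is above and blue below the gene's mean. The top 5 rows are all above the mean in ctr_hEV 1 and 3 and all below it in RIC_hEV 1, 2 and 4 and ctr_hEV 4, and they differ in sign in RIC_hEV 3 and ctr_hEV 2. ctr_hEV 1 is above the mean in all 10 genes, and S100a10 differs from the top rows in ctr_hEV 3.

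The genes whose pattern over the 8 libraries was most like the mean log2(FPKM + 1) of the 10 members were Csad (r = 0.988), Dynlt1-ps1 (0.984), Rassf1 (0.984), Tnfaip8l2 (0.979) and Arhgdib (0.978). They were picked as the highest of all tested genes outside the members, so these values carry no test. Arhgdib, abundant in blood cells, was at 12.8 to 16.6 FPKM in RIC_hEV and 13.5 to 28.3 FPKM in ctr_hEV, and Csad, an enzyme of taurine synthesis, at 15.3 to 24.6 FPKM in RIC_hEV and 15.5 to 33.8 FPKM in ctr_hEV. None of the 5 passed (limma adjusted p of 0.370 to 0.531).

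Markers of several non-hepatocyte cell types were high in ctr_hEV 1 and 3, where the annexin block was also high. In ctr_hEV 2 both the genes of the block and the marker sums were divided. There Anxa2, Anxa4, Anxa5 and the neutrophil sum lay above every RIC_hEV library. S100a6, S100a11 and the cholangiocyte, macrophage and stellate cell sums did not. The summed FPKM of 8 cholangiocyte markers was 20.5, 25.1, 39.5 and 23.7 in RIC_hEV 1 to 4, against 151, 27.0, 111 and 28.4 in ctr_hEV 1 to 4. Most of it was Spp1, which lipid-laden macrophages also express, but Epcam, specific to duct cells in liver, was likewise at 0.939 to 1.2 FPKM in RIC_hEV, against 9.10, 1.2, 4.96 and 0.886 FPKM in ctr_hEV 1 to 4. Of this list 4 were tested, all lower in RIC_hEV as fitted, against 73.0% of tested genes, and no marker was at 0 in all libraries.

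The 10 macrophage markers summed to 581, 810, 787 and 870 FPKM in RIC_hEV 1 to 4, against 1420, 784, 1121 and 746 FPKM in ctr_hEV 1 to 4. The 10 stellate cell and myofibroblast markers summed to 114, 129, 149 and 152 FPKM in RIC_hEV, against 275, 129, 213 and 121 FPKM in ctr_hEV. In both sums ctr_hEV 1 and 3 were highest and ctr_hEV 2 and 4 lay with the RIC_hEV libraries. Single markers did not all follow the sums. Of the 10 macrophage markers 9 were lower in RIC_hEV as fitted and 1 higher. Clec4f was highest in RIC_hEV 4 (72.5 FPKM) and Ccr2 in RIC_hEV 3 (1.88 FPKM). The sum of the hepatocyte markers, most of it Alb, was lowest in ctr_hEV 1 at 27349 FPKM. All 8 hepatocyte markers were higher in RIC_hEV as fitted, 6 of them at an unadjusted p under 0.05 and 0 after adjustment. Cyp2e1 followed the split of the control libraries, at 1182 and 1330 FPKM in ctr_hEV 1 and 3, against 3129 and 3490 FPKM in ctr_hEV 2 and 4. Not all the hepatocyte markers did. Hpd, an enzyme of tyrosine breakdown, was at 563 to 772 FPKM in RIC_hEV and 362 to 532 FPKM in ctr_hEV. Hpd and Apoa1 did not overlap between the groups, where 5.87% of tested genes did not overlap. Tat was lowest in ctr_hEV 2, and Cps1 and Ass1 were highest among the controls in ctr_hEV 3.

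The 10 neutrophil markers, which include S100a8 and S100a9, summed to 9.51, 18.8, 12.9 and 9.69 FPKM in RIC_hEV 1 to 4. In ctr_hEV 1 to 4 the sums were 38.1, 34.9, 79.1 and 16.2 FPKM. As in Anxa2, Anxa4 and Anxa5, ctr_hEV 1, 2 and 3 lay above every RIC_hEV library and ctr_hEV 4 within their range. In contrast to the annexin block, ctr_hEV 3 was highest. Endothelial markers summed to 75.5 to 107 FPKM in RIC_hEV and 79.7 to 97.9 FPKM in ctr_hEV, T and NK cell markers to 4.12 to 5.36 FPKM in RIC_hEV and 3.28 to 5.53 FPKM in ctr_hEV, and mesothelial markers to 0.453 to 0.665 FPKM in RIC_hEV and 0.137 to 0.854 FPKM in ctr_hEV. The 6 B and plasma cell markers summed to 41.8 to 53.8 FPKM in RIC_hEV and 13.8 to 25.1 FPKM in ctr_hEV and did not overlap, a direction opposite to that of the annexins. The part of any cell type in the annexin values was not tested.

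**Figure D5:**
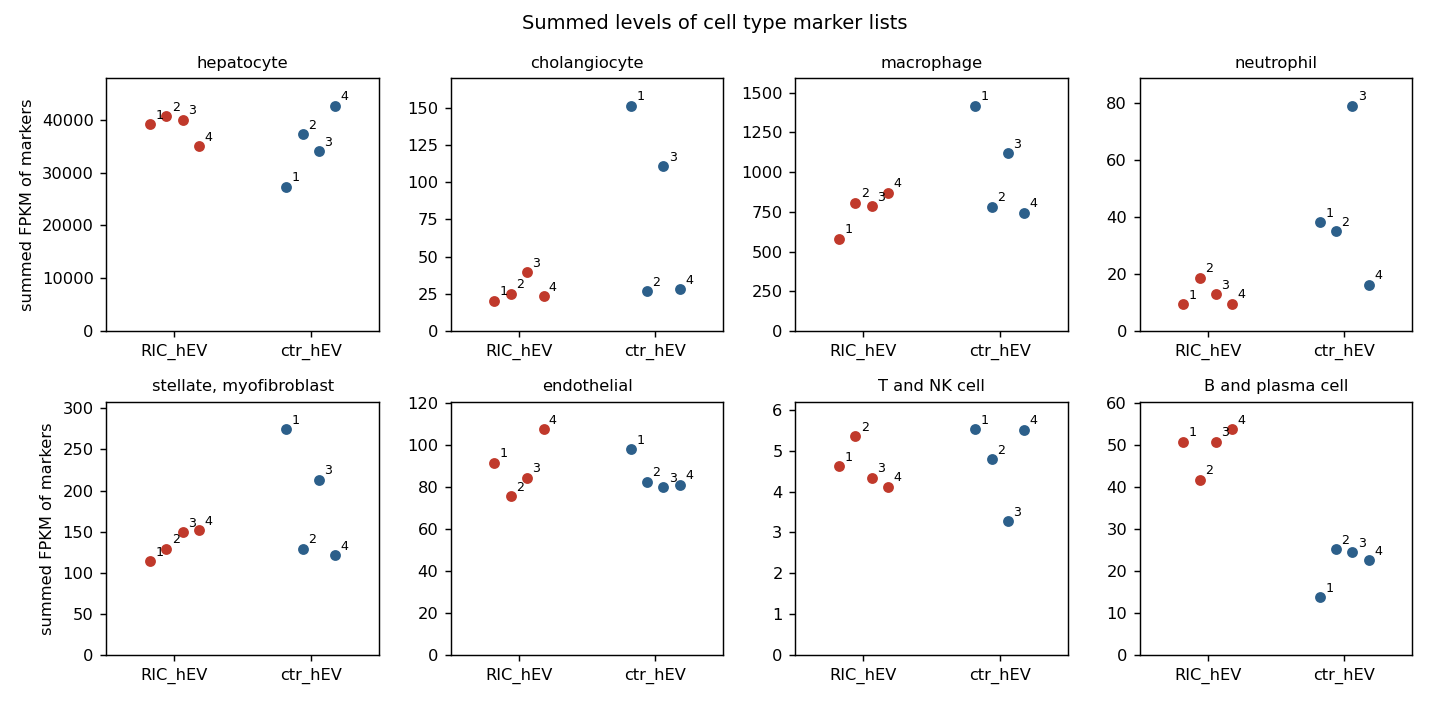
Summed FPKM of 8 cell type marker lists, 1 point per library numbered by replicate, RIC_hEV left (red) and ctr_hEV right (blue). Cholangiocyte, macrophage and stellate cell markers are highest in ctr_hEV 1 and 3, hepatocyte markers are lowest in ctr_hEV 1, and B and plasma cell markers are higher in all RIC_hEV libraries.

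Many other members of both families were low, and none passed. Of 5 further annexins 2 were tested. Anxa11, the annexin of RNA granules, was at 4.35 ± 0.371 FPKM in RIC_hEV and 4.77 ± 0.468 FPKM in ctr_hEV (limma adjusted p = 0.581), and Anxa9 at 0.926 ± 0.242 FPKM in RIC_hEV and 1.22 ± 0.673 FPKM in ctr_hEV (adjusted p = 0.678). Anxa10 was listed at 0 in every library. Of 13 further S100 genes 7 were tested, 2 higher and 5 lower as fitted, and 0 passed. The 2 higher, named here for their direction, were S100a1 and S100a13. S100a1, the most abundant of the 13, was at 95.7 ± 14.1 FPKM in RIC_hEV and 88.3 ± 12.6 FPKM in ctr_hEV. S100a13 was at 21.3 ± 4.90 FPKM in RIC_hEV and 20.8 ± 3.06 FPKM in ctr_hEV. S100a4, a protein of motile mesenchymal and myeloid cells, was at 3.69, 5.49, 6.81 and 5.73 FPKM in RIC_hEV 1 to 4, against 11.4, 7.81, 8.90 and 5.79 FPKM in ctr_hEV 1 to 4, an order of libraries close to that of Anxa2 (log2 change -0.55, SE 0.20, limma adjusted p = 0.354). The neutrophil pair S100a8 and S100a9 averaged 3.61 ± 0.803 and 4.69 ± 2.66 FPKM in RIC_hEV, against 11.8 ± 7.22 and 18.3 ± 12.2 FPKM in ctr_hEV (adjusted p = 0.332 for each).

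Receptors, binding partners and the plasmin system, into which the Anxa2 complex feeds, were also without a call. Of 21 genes listed 18 were tested, 3 higher and 15 lower as fitted, with a median log2 change of -0.18. Plau, the urokinase activator, was at 3.98 ± 0.834 FPKM in RIC_hEV and 7.51 ± 3.55 FPKM in ctr_hEV (log2 change -0.70, SE 0.24, limma adjusted p = 0.353).

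Fpr2, a receptor of Anxa1, was at 1.68, 2.2, 1.25 and 1.77 FPKM in RIC_hEV 1 to 4, against 2.62, 2.30, 3.01 and 2.43 FPKM in ctr_hEV 1 to 4. ctr_hEV 4 here lay with the other controls. The groups did not overlap in Fpr2, as in 5.87% of all tested genes (log2 change -0.41, SE 0.12, limma adjusted p = 0.332). Its ligand gene Anxa1 overlapped widely between the groups in the same libraries.

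Plasma membrane repair, a process that several annexins take part in, was near the median of all genes. Of 20 genes listed 17 were tested, 4 higher and 13 lower as fitted, with a median log2 change of -0.12, beside -0.11 for all tested genes. Vps4b, an ATPase that disassembles the membrane-cutting ESCRT filaments, was at 4.53 ± 0.423 FPKM in RIC_hEV and 5.95 ± 0.781 FPKM in ctr_hEV. Its groups did not overlap, as in 5.87% of all tested genes (log2 change -0.33, SE 0.11, limma adjusted p = 0.353). Tsg101, which recruits that machinery, was at 11.5 ± 0.793 FPKM in RIC_hEV and 13.4 ± 1.45 FPKM in ctr_hEV, and Capn2, a calcium-activated protease, at 7.70 ± 0.952 FPKM in RIC_hEV and 9.80 ± 2.56 FPKM in ctr_hEV (adjusted p = 0.381 and 0.412).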

How the data were processed

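The 8 RNA-seq libraries of mouse liver were prepared with a VAHTS kit from Trizol-extracted RNA, as the protocols state. Tools listed by the submitters' processing notes are HISAT2 2.2.1, HTSeq 0.13.5, Trimmomatic 0.38 and DESeq2 1.18.1, with the build mm10. The authors deposited FPKM values, 1 column per library. The sources used here do not say which program or annotation gave the FPKM, or whether strand was used. Totals per library were 389616 to 430326 FPKM. Rows without a gene name (3225 of 55335) were left out and held 0.176% to 0.207% of FPKM. Where a symbol stood on more than 1 row (80 symbols), the row with the higher mean kept it. Read counts were not used here, so depth is an estimate and covers counting error only.

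Values were transformed to log2(FPKM + 1), a scale that understates the change of low genes. Genes with a mean of at least 1 FPKM were fitted with limma 3.58.1 in R 4.3.3 (trend, two-sided, Benjamini-Hochberg over all tested genes, threshold 0.05), RIC_hEV minus ctr_hEV, with groups and replicate numbers from the sample titles. SE, intervals and p-values belong to the fitted change and not to the change relative to the median gene. Transcript ratios were compared with exact permutation tests. The fit was tested on simulated data. The members, gene lists, marker lists and alternatives were chosen with earlier results of these data known. Named list genes are the 3 tested members of each list with the lowest p. A gene that this rule names in the list of partners and the plasmin system is not reported here. Alternatives were another pseudocount (0.1), other filters, median centring, quantile normalization, a TPM scale, a replicate block and left-out libraries. Shared 31-base stretches were counted over GENCODE M21 transcripts.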

Additional observations from a re-analysis of the deposited data

How the results depend on the processing

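None of the 10 genes was called under any of the 16 alternatives, with a lowest adjusted p of 0.0554 (Anxa5 without ctr_hEV 4). Anxa2, Anxa4 and Anxa5 were lower in RIC_hEV in all 16, at -0.76 to -0.20, -0.56 to -0.17 and -0.68 to -0.21. Of 160 member values 19 changed sign. With median centring Anxa6 was at 0.13, Anxa7 at 0.04 and S100a10 at 0.02, and with quantile normalization Anxa6 at 0.0053. Without ctr_hEV 1 and 3 Anxa1 was at 0.35, Anxa3 at 0.08, Anxa6 at 0.13, Anxa7 at 0.05, S100a6 at 0.13 and S100a11 at 0.02, and the median of the 10 at 0.034. With 1 library left out the range was -0.31 to 0.03 for Anxa1, -0.05 to 0.08 for Anxa6, -0.26 to 0.05 for Anxa7 and -0.28 to 0.01 for S100a10. The count of called genes, 4 in all, was 2 without a filter, 1 with a mean of at least 5 FPKM, 8 without ctr_hEV 1 and 3, and 1 to 176 with 1 library left out, the highest without ctr_hEV 4 and 1 or 2 without RIC_hEV 1, 3 or 4; the cause was not tested. The ratio differences kept their sign, at -0.55 to -0.07 for Anxa2 to S100a10 and 0.24 to 0.49 for Anxa1 to S100a11. Same-numbered libraries did not deviate together (r of 0.0524, 0.12, -0.00854 and -0.227). The labels do not say whether the numbers pair the samples, and so few libraries cannot decide it. With a replicate block 3 genes and 0 members were called, and the exact sign-flip p of the ratios was 0.375 and 0.125. The 95% interval of the fitted change of S100a6, the lowest of the 10 genes, was -0.99 to 0.27.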

Other observations

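Anxa13, an annexin of epithelial apical membranes, lay below the filter and was chosen for naming after its values were seen. It was at 0.430, 0.429, 0.790 and 0.571 FPKM in RIC_hEV 1 to 4, against 2.14, 0.630, 2.27 and 0.683 FPKM in ctr_hEV 1 to 4. As with the summed cholangiocyte markers, ctr_hEV 1 and 3 were high and ctr_hEV 2 and 4 lay within the RIC_hEV range (two-sided exact permutation p = 0.114). Mfge8, a secreted bridge between phosphatidylserine and phagocytes that binds the same lipid as Anxa5 and was also chosen after its values were seen, had the same arrangement, at 6.31, 7.14, 6.62 and 8.23 FPKM in RIC_hEV 1 to 4, against 20.1, 7.05, 19.6 and 6.43 FPKM in ctr_hEV 1 to 4 (limma adjusted p = 0.377).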
